A study of Homo sapiens with 6 samples.

Results

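MET, AXL, IGF1R, INSR, FGFR1, FGFR2, FGFR3, DDR1 and EPHA2 encode receptor tyrosine kinases that can take over growth signaling when EGFR is blocked, and they were followed in EGFR-mutant lung cancer cells after knockdown (KD) of the splicing factor RBM10. The genes were taken by symbol, and they make up 9 of 26334 genes and 42 of 51398 RefSeq isoforms in the files. PC-9 cells, a human lung adenocarcinoma line with an activating EGFR mutation, carried a scrambled shRNA (shScr), shRBM10#1 or shRBM10#2, were grown in RPMI with serum and received no drug. There were 2 libraries per condition and 6 in all. The labels and the results section of the study call the controls shScr, whereas its methods speak of parental PC-9 cells. No label says whether the libraries of a condition came from separate cultures, so a p-value here may measure technical spread alone. Both comparisons with shScr use the same control libraries.

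A receptor tyrosine kinase binds a ligand outside the cell, pairs with a second receptor and phosphorylates tyrosines in its own tail, to which adaptor proteins attach and start the RAS-MAPK and PI3K-AKT cascades. In EGFR-mutant lung cancer, MET amplification and AXL or FGFR1 upregulation are well-known routes by which cells keep these cascades running while EGFR is inhibited. Several of these receptors also exist as splice forms that differ in ligand preference, such as the exon 11 forms of the insulin receptor and the alternative immunoglobulin domain of the FGF receptors.

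Library totals were 31953729 to 37557507 expected counts, the read numbers that RSEM assigns to isoforms, and TMM scaling factors were 0.979 to 1.02. The mean fragment length implied by the effective lengths was 231.2 nt in shScr replicate 2 and 264.9 to 281.2 nt in the other libraries, and its part in the results was not tested beyond the length offset given with them. Epithelial markers were high in every library (EPCAM 379 to 455 TPM, CDH1 111 to 134 TPM), whereas COL1A2, DCN, PDGFRB, PTPRC, CD3E and VWF stayed at or below 0.24 TPM. Other such markers had low levels, with CDH5 at 4.65 to 10.9 TPM, COL1A1 at 1.99 to 2.88 TPM, PECAM1 at 1.16 to 1.64 TPM and CD14 at 0.27 to 0.75 TPM. RBM10 was at 38.5 and 45.7 TPM with shScr, 28.4 and 25.8 TPM under shRBM10#1 and 13.1 and 12.8 TPM under shRBM10#2. It fell by 0.54 on the log2 scale with shRBM10#1 (edgeR FDR 0.000228) and by 1.65 with shRBM10#2 (FDR 5.1e-08). EGFR itself was at 69.1 and 87.4 TPM with shScr, 66.25 and 52.4 TPM under shRBM10#1 and 57.8 and 56.6 TPM under shRBM10#2, and it fell by 0.29 (FDR 0.0441) and by 0.38 (FDR 0.00758) on the log2 scale.

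The stretches by which the main splice forms of these receptors differ are shown because the isoform results below compare these forms. They were read from the GENCODE 29 transcripts (GRCh38) whose RefSeq accession matched, which was so for 37 of the 42 isoforms (a transcript listed for several accessions was kept for the one nearest in length), whereas the authors' quantification used hg19. Capitals mark the stretch itself, and the 15 bases on either side are those that flank it in the mRNA, 5′ to 3′. The first is exon 11 of INSR, 36 nt on the minus strand at chr19:7150497-7150532, present in NM_000208 (the B form) and absent from NM_001079817 (the A form). The next is the 111 nt exon 13 of DDR1 at chr6:30895404-30895514, held by NM_013993 and absent from NM_001954. In the files the lengths of these DDR1 forms differ by 37 nt, so they also differ outside this exon.
INSR exon 11: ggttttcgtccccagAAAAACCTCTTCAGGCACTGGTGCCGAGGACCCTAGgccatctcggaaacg
DDR1 exon 13: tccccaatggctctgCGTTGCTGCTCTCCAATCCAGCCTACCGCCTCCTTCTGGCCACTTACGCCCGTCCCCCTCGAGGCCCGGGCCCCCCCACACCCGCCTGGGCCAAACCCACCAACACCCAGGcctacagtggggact

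Among the FGF receptors, FGFR3 NM_022965 lacks a 151 nt exon (chr4:1802914-1803064) and a 191 nt exon (chr4:1804330-1804520) of NM_001163213, the latter of which encodes the membrane-spanning segment. Small differences separate the remaining pairs. IGF1R NM_000875 holds 3 nt at chr15:98929558-98929560 that NM_001291858 lacks, MET NM_001127500 holds 54 nt at chr7:116759337-116759390 that NM_000245 lacks, and AXL NM_021913 holds a 27 nt exon at chr19:41239694-41239720 that NM_001699 lacks. The 27 nt exon of AXL is also held by NM_001278599. All the stretches lie in coding exons.
FGFR3 191 nt exon: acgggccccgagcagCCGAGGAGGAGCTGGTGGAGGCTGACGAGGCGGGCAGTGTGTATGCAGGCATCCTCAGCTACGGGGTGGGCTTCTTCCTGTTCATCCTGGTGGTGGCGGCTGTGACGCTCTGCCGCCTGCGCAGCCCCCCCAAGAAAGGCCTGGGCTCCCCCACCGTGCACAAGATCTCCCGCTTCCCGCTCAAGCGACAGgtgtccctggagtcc
IGF1R 3 nt stretch: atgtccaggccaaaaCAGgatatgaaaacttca
MET 54 nt stretch: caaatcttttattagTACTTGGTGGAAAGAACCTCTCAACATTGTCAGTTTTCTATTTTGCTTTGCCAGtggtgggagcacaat
AXL 27 nt exon: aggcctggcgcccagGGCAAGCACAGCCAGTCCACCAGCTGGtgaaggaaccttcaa

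The receptors covered a wide range of levels in PC-9 cells. On the TPM scale, which divides by length, the means over the 6 libraries were 210 for DDR1, 47.7 for EPHA2, 32.4 for FGFR3, 13.4 for MET, 11.4 for IGF1R, 3.51 for FGFR1, 2.42 for FGFR2, 1.55 for INSR and 0.535 for AXL. In each of the 6 libraries every receptor stood above the next in this order. Over all libraries, the ranges of EPHA2 and FGFR3, of MET and IGF1R, and of FGFR1 and FGFR2 overlapped, and the ranges of the other neighbors did not.

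**Figure D1:**
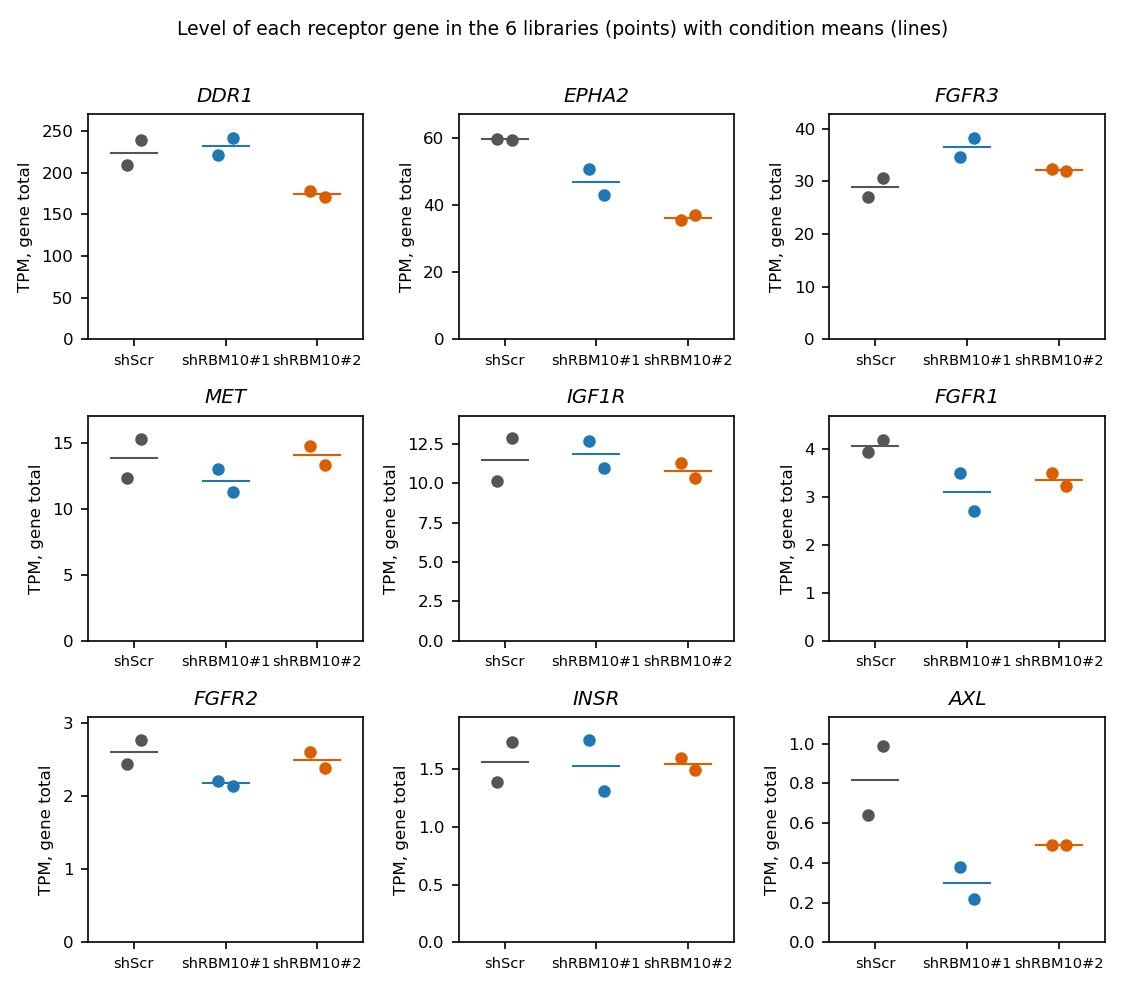
Gene totals in TPM (y axis, from 0) of the 9 receptors in each library, by condition (x axis). Points are libraries and lines are means of 2. EPHA2 is lower in all 4 KD libraries than in both shScr libraries, FGFR3 is higher in all 4, IGF1R and INSR overlap between conditions, and MET with either shRNA overlaps with shScr.

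With shRBM10#1, FGFR3 rose 1.36-fold and AXL fell to 0.415 of its control level. With shRBM10#2, EPHA2 fell to 0.633 and DDR1 to 0.831 of control. The calls are gene totals at an FDR below 0.05 from edgeR's quasi-likelihood test over 14217 genes. With shRBM10#1, 1 of the 9 receptors was called higher and 1 lower, where 7.13% of all genes were called higher and 6.91% lower. With shRBM10#2, 0 were called higher and 2 lower, where the shares of all genes were 12.0% and 13.9%. DESeq2 also called 0 higher. An unadjusted edgeR p below 0.05 was seen for 4 of the 9, FGFR3 among them, and for 5382 of all 14217 genes. The 9 receptors had a median log2 FC of -0.08 for shRBM10#1 and -0.02 for shRBM10#2, beside 0.01 for all genes in either comparison. A lower level in these bulk libraries can mean fewer cells with the transcript or less of it per cell, which cannot be told apart.

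**Figure D2:**
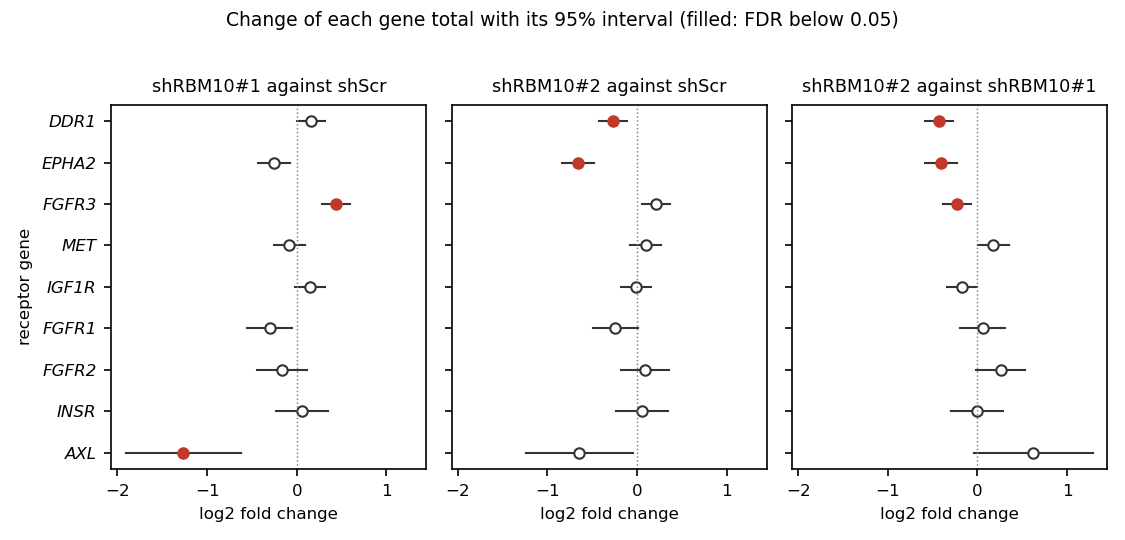
Log2 fold change of each gene total (x axis) with its 95% interval (bars) for the 9 receptors (y axis, by level), in 3 comparisons. Filled points have an FDR below 0.05: FGFR3 (0.44) and AXL (-1.27) with shRBM10#1, EPHA2 (-0.66) and DDR1 (-0.27) with shRBM10#2, and DDR1, EPHA2 and FGFR3 between the shRNAs.

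MET, the receptor for hepatocyte growth factor, was at 12.4 and 15.3 TPM with shScr, 13.0 and 11.3 TPM under shRBM10#1 and 14.8 and 13.4 TPM under shRBM10#2. Both shRNAs overlapped with shScr, the shRBM10#2 libraries were above the shRBM10#1 libraries, and no comparison was called. Its log2 FC was -0.08 with shRBM10#1 (95% interval -0.26 to 0.09) and 0.09 with shRBM10#2 (-0.08 to 0.26). AXL, the receptor for GAS6, was the lowest of the 9, at 59 and 81 expected counts with shScr, 34 and 26 with shRBM10#1 and 51 and 52 with shRBM10#2. On the TPM scale these were 0.64 and 0.99, 0.38 and 0.22, and 0.49 and 0.49. All 4 KD libraries were below both shScr libraries. AXL fell by 1.27 on the log2 scale with shRBM10#1 (SE 0.297, FDR 0.0131). With shRBM10#2 its log2 FC was -0.65 (interval -1.24 to -0.05, FDR 0.104). The AXL call was lost without shScr replicate 2 (log2 FC -1.03, FDR 0.124) and without shRBM10#1 replicate 2 (-0.97, FDR 0.102).

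IGF1R, which binds insulin-like growth factors, was at 10.1 and 12.9 TPM with shScr, 12.7 and 11.0 TPM under shRBM10#1 and 11.3 and 10.35 TPM under shRBM10#2. INSR, the insulin receptor, was at 1.39 and 1.74, 1.75 and 1.31, and 1.60 and 1.49 TPM in the same order. For both genes the conditions overlapped. The log2 FC of IGF1R was 0.15 with shRBM10#1 (interval -0.02 to 0.32) and -0.02 with shRBM10#2 (-0.18 to 0.15). That of INSR was 0.06 (-0.23 to 0.35) and 0.05 (-0.23 to 0.34).

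FGFR3 was the most abundant of the 3 FGF receptors, at 27.0 and 30.6 TPM with shScr, 34.7 and 38.3 TPM under shRBM10#1 and 32.2 and 31.9 TPM under shRBM10#2. Every KD library was above both shScr libraries. It rose by 0.44 on the log2 scale with shRBM10#1 (SE 0.0726, FDR 0.00154), and this call held in all 13 alternative fits. With shRBM10#2 its log2 FC was 0.21 (interval 0.05 to 0.36), and the FDR of 0.0521 missed the threshold, which 4 of 12 alternative fits passed (no filter, 10 counts in every library, and either shRBM10#1 library left out). FGFR1 was at 3.94 and 4.19 TPM with shScr, 3.49 and 2.71 TPM under shRBM10#1 and 3.50 and 3.22 TPM under shRBM10#2. Although its 4 KD libraries were below both shScr libraries, its log2 FC of -0.30 (interval -0.56 to -0.05, FDR 0.108) and -0.25 (-0.50 to 0.0044, FDR 0.139) were not called. FGFR2 overlapped between shScr and shRBM10#2, at 2.43 and 2.76, 2.20 and 2.14, and 2.60 and 2.38 TPM. Its log2 FC was -0.17 (interval -0.45 to 0.11) with shRBM10#1 and 0.09 (-0.18 to 0.36) with shRBM10#2.

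EPHA2, a receptor for ephrin-A ligands on neighboring cells, was at 59.9 and 59.6 TPM with shScr, 50.8 and 43.2 TPM under shRBM10#1 and 35.5 and 37.1 TPM under shRBM10#2. The conditions did not overlap, with shRBM10#2 lowest. EPHA2 fell by 0.66 on the log2 scale with shRBM10#2 (SE 0.0825, FDR 0.000314), and this call held in all 12 alternative fits. With shRBM10#1 the log2 FC was -0.26 (interval -0.43 to -0.08) at an FDR of 0.0551, and 6 of 13 alternative fits put it below 0.05. DDR1, a receptor for fibrillar and basement membrane collagens and the most abundant of the 9, was at 209 and 240 TPM with shScr, 222 and 242 TPM under shRBM10#1 and 178 and 171 TPM under shRBM10#2. Only the shRBM10#2 libraries stood below shScr. DDR1 fell by 0.27 on the log2 scale with shRBM10#2 (SE 0.0714, FDR 0.0167), whereas its log2 FC with shRBM10#1 was 0.16 (interval 0.0056 to 0.31, FDR 0.161). Leaving out any 1 library of the shRBM10#2 comparison raised the FDR of DDR1 to between 0.0527 and 0.186, at a log2 FC of -0.29 to -0.24.

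Set directly against shRBM10#1, the shRBM10#2 libraries had less DDR1 (log2 FC -0.43, SE 0.0715, FDR 0.00141), less EPHA2 (-0.40, SE 0.0826, FDR 0.00422) and less FGFR3 (-0.23, SE 0.0719, FDR 0.0317). Thus 0 receptors were called higher and 3 lower, where 11.0% of all genes were called higher and 14.5% lower. DESeq2 also called 0 higher. An unadjusted edgeR p below 0.05, in either direction, was seen for 5 of the 9 and for 5420 of all 14217 genes. The FGFR3 difference was lost with the effective length offset (FDR 0.0519) and without shRBM10#1 replicate 2 or either shRBM10#2 library (FDR 0.17 to 0.209), and that of EPHA2 without shRBM10#2 replicate 1 (FDR 0.0623). With both shRNAs taken as 1 group of 4 libraries, 0 of the 9 receptors were called by edgeR or DESeq2. An unadjusted edgeR p below 0.05 was seen for 4 receptors (AXL, EPHA2, FGFR1 and FGFR3) and for 2450 of all 14217 genes. Here 0.542% of all genes were called higher and 1.08% lower, and the smallest FDR among the receptors was 0.161. RBM10 itself was not called by edgeR in this comparison (log2 FC -0.99, FDR 0.146), so a receptor that is not called here may still have changed. In that comparison the log2 FC was -0.92 for AXL (interval -1.57 to -0.26), -0.44 for EPHA2 (-0.77 to -0.12) and 0.33 for FGFR3 (0.09 to 0.57).

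Splice forms were examined next, since RBM10 regulates splicing. Of the 42 receptor isoforms, 32 were above 0 in at least 1 library and 29 passed the filter on low counts. No receptor isoform met the criteria of the study, an FDR below 0.05 and a log2 FC beyond 1 in either direction, in any of the 3 comparisons with shScr. Of all isoforms, 0% passed when the shRNAs were pooled, 0.0227% for shRBM10#1 and 0.491% for shRBM10#2. By edgeR, 3, 3 and 7 receptor isoforms had an unadjusted p below 0.05 in these comparisons, and DESeq2 called 0, 0 and 2. The shares of all isoforms by these 2 measures are not given here, so the counts are a description only. The only isoform of EPHA2, NM_004431, had an FDR of 0.0475 with shRBM10#2 at a log2 FC of -0.66, below the fold criterion. Isoform usage, the change of an isoform relative to its gene, was tested with edgeR's diffSpliceDGE, and 1 of the 7 receptors with several isoforms was called, DDR1 with shRBM10#2 (FDR 0.00161), where 2.75% of all genes were called. With shRBM10#1 and in the pooled comparison, 0 were called by diffSpliceDGE or limma and 0 had an unadjusted diffSpliceDGE p below 0.05, where 0.172% and 0.515% of all genes were called.

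DDR1 was spread over 9 isoforms, of which NM_013993 held the most (28.1% and 35.7% of the gene with shScr, 35.0% and 37.8% with shRBM10#1, 37.9% and 38% with shRBM10#2). The usage call came from NM_001202521, which is 3288 nt long in the files and has no transcript of its own among those matched, so its exons are not given. It had 1806 and 3074 expected counts with shScr, 2264 and 1991 with shRBM10#1 and 717 and 200.05 with shRBM10#2. As a percent of the gene this was 12.6% and 21.1%, 15.7% and 10.4%, and 5.28% and 1.48%. Both shRBM10#2 libraries were below the other 4, and the shRBM10#1 libraries overlapped with shScr. Its usage log2 FC with shRBM10#2 was -1.63 (diffSpliceDGE FDR 0.000637), and its own log2 FC was -2.60 (SE 0.620, FDR 0.0934). The usage call held in the alternatives of test, filter and block and was lost without shRBM10#2 replicate 2.

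The 111 nt exon of DDR1 lengthens the juxtamembrane part of the receptor and is held by NM_013993, NM_001297654 and NM_013994 of the 8 matched isoforms. These made up 58.1% and 53.0% of DDR1 with shScr, 57.3% and 61.0% with shRBM10#1, and 61.7% and 61.4% with shRBM10#2. Hence, by the matched isoforms, 3 of 4 KD libraries were above both shScr libraries, and the other lay between them. The unmatched NM_001202521, which was lowest with shRBM10#2, is not in these sums. Whether it holds the exon is not known, and if it does the direction could differ. Of the remaining forms, NM_001954 was at 16.7% and 12.1% with shScr, 16.1% and 17.3% with shRBM10#1 and 19.8% and 23.4% with shRBM10#2. NM_013994 was at 13.4% and 8.53%, 11.6% and 11.5%, and 7.74% and 7.77%. Its log2 FC with shRBM10#2 was -0.80 (edgeR FDR 0.118). NM_001297654 held 12.7% ± 5.59 (SD, n = 2), 11.2% ± 0.71 and 15.8% ± 0.28, and NM_001297652 held 10.1% ± 1.42, 9.68% ± 0.54 and 11.6% ± 0.47 in the same order. In the files all DDR1 accessions but NM_001202521 and NM_013994 carry a numeric suffix whose meaning is not given in the sources used here. RSEM divides reads among forms that share most of their sequence.

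**Figure D3:**
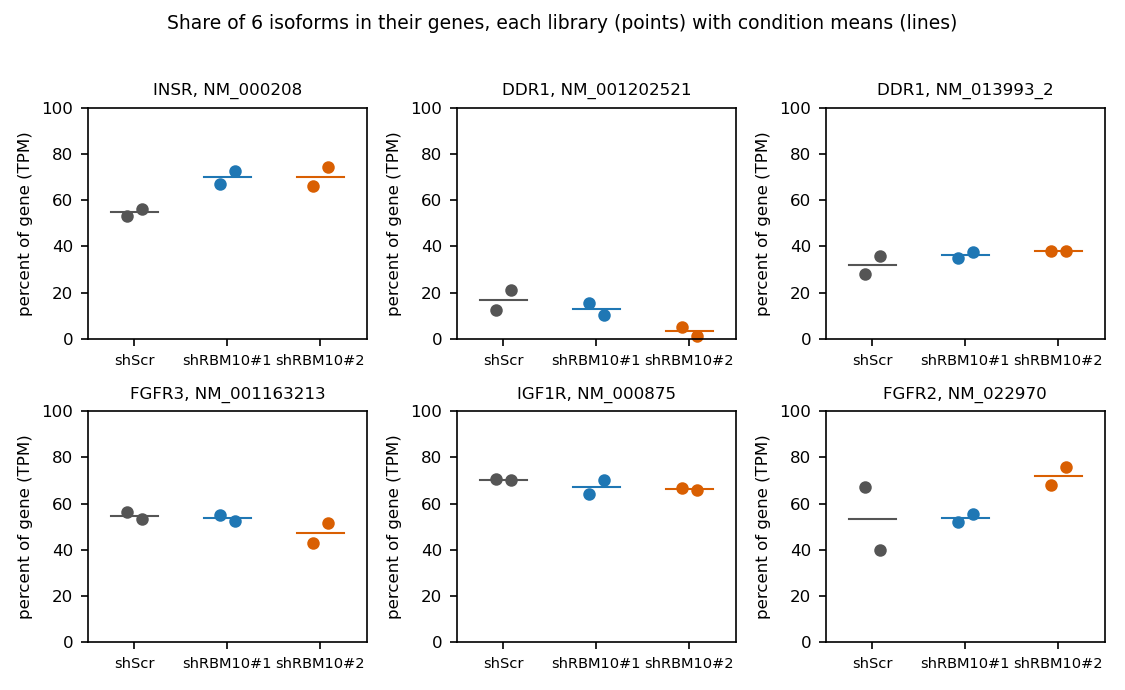
Percent of the gene's TPM (y axis, 0 to 100) held by 6 isoforms in each library, by condition (x axis), with points for libraries and lines for means of 2. NM_000208 of INSR is at 53.3% and 56.2% with shScr and at 66.0% to 74.5% in the 4 KD libraries, and NM_001202521 of DDR1 is lowest with shRBM10#2.

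Among the 7 receptors with several isoforms, INSR was the only one whose main isoform had shares in the KD libraries that did not overlap with shScr. How often the main isoforms of all genes separate in this way was not counted, so this is a description only. NM_000208, the B form with exon 11, which binds insulin but not IGF-II with high affinity, held 53.3% and 56.2% of the gene with shScr, 67.1% and 72.65% with shRBM10#1 and 66.0% and 74.5% with shRBM10#2. The mean was 54.7% ± 2.04 (SD, n = 2) with shScr and 70.0% ± 4.15 (n = 4) with KD, a difference of 15.3 percentage points. An exact permutation test (two-sided) of this difference gave p = 0.0667, the smallest that 2 against 4 libraries allow. INSR was singled out by the same separation, so this p-value adds nothing to it. NM_000208 had expected counts of 149 and 172 with shScr, 222 and 218 with shRBM10#1 and 235 and 256 with shRBM10#2, while NM_001079817 had 130 and 134, 109 and 81.8, and 121 and 87.6. Its usage was not called by diffSpliceDGE with either shRNA (FDR 1 in both), nor by limma (FDR 0.231 and 0.0896). Only reads over the 36 nt exon or its junctions tell these forms apart, and INSR gave 279 to 356 counts over its whole length.

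The main isoforms of the other receptors overlapped between shScr and KD. IGF1R NM_000875 held 70.6% and 70.1% with shScr, 64.2% and 70.35% with shRBM10#1 and 66.7% and 65.7% with shRBM10#2 (pooled difference -3.62 percentage points, exact permutation p = 0.267). The remainder was NM_001291858, which lacks the 3 nt. FGFR3 NM_001163213, the IIIb form typical of epithelia, held 56.3% and 53.2%, 55.0% and 52.6%, and 42.8% and 51.6% (difference -4.21, exact permutation p = 0.4). NM_022965, without the membrane-spanning exon, held 42.1% and 46.0%, 44.4% and 46.1%, and 56.9% and 47.8%, while NM_000142 held at most 1.61%. Both main FGFR3 forms were higher with shRBM10#1 than with shScr, at log2 FC of 0.41 (FDR 0.186) and 0.48 (FDR 0.193), neither of which was called. With shRBM10#2 the log2 FC of NM_022965 was 0.47 (FDR 0.119).

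Of the FGFR2 isoforms NM_022970 held the largest share, 67.0% and 39.8% with shScr, 52.2% and 55.5% with shRBM10#1 and 68.1% and 75.7% with shRBM10#2, so that shScr overlapped with both. Its means were 53.4% ± 19.3 (SD, n = 2), 53.8% ± 2.29 and 71.9% ± 5.41, followed by NM_001144919 at 24.8% ± 1.51, 29.2% ± 14.2 and 10.4% ± 1.2. FGFR1 reads were divided among 7 isoforms. NM_023106 held 27.2% and 25.5% with shScr, 27.3% and 24.7% with shRBM10#1 and 42.0% and 63.3% with shRBM10#2, where both libraries were above the other 4. NM_015850 had its lowest shares there, at 31.6% and 24.35%, 36.0% and 25.1%, and 6.71% and 15.1%. Neither was called with shRBM10#2 (log2 FC 0.77, FDR 0.196, and -1.60, FDR 0.152), and NM_001174063, NM_023105 and NM_023110 ranged from 0% to 36.0% between libraries. Their levels rest on 0 to 171 counts.

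For AXL, NM_001278599 held 70.7% and 59.6% with shScr, 39.65% and 0% with shRBM10#1 and 55.8% and 63.6% with shRBM10#2. NM_001699 held 34.8% ± 7.82 (SD, n = 2), 64.4% ± 5.72 and 22.1% ± 31.25, and NM_021913 was above 0 in only 2 libraries. The 2 isoforms with the 27 nt exon, NM_001278599 and NM_021913, together held 70.7% and 59.6% with shScr. With shRBM10#1 they held 39.65% and 31.6%, and with shRBM10#2 55.8% and 100%. Each AXL isoform had 0 to 45.5 expected counts per library, and usage, tested for 2 of the 3 isoforms, was not called with either shRNA (diffSpliceDGE FDR 1 in both). MET was quantified from NM_000245 alone in all 6 libraries, and NM_001127500, with the 54 nt stretch, was listed at 0 in each. EPHA2 has 1 isoform in the files.

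The ligands, processing factors, co-receptors and adaptors of these pathways were followed as a list of 81 genes, of which 68 passed the filter. With shRBM10#1, 14 (20.6%) were called higher and 12 (17.6%) lower, and with shRBM10#2, 5 (7.35%) were called higher and 19 (27.9%) lower, beside the shares of all genes given above. The median log2 FC of the list was -0.02 and -0.10. Between the shRNAs, 4 were higher and 20 lower with shRBM10#2, and in the pooled comparison 1 gene, IGF2R, was lower (log2 FC -0.49, FDR 0.0403) and 0 were higher.

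Among ligands, FGF18 fell by 1.91 on the log2 scale with shRBM10#1 (FDR 0.0367) and fell by 1.59 with shRBM10#2 (FDR 0.0404). FGF19, an endocrine FGF, rose by 1.84 with shRBM10#1 (FDR 0.0164), and the ephrin ligand EFNA1 rose by 0.36 (FDR 0.049). The FGF18 and FGF19 changes rest on few reads. FGF18 had 24 and 31 expected counts with shScr, 8 and 7 with shRBM10#1 and 4 and 17 with shRBM10#2. For FGF19 they were 8 and 6, 24 and 29, and 21 and 17. The counts called among 14 ligands tested were 3 higher and 4 lower with shRBM10#1 and 0 higher and 4 lower with shRBM10#2. HGF, the ligand of MET, and IGF1 did not pass the filter. Factors that process or bind ligands and receptors had 5 of 21 higher and 6 lower with shRBM10#1, and 1 higher and 9 lower with shRBM10#2. IGFBP5, which binds insulin-like growth factors, rose by 1.89 with shRBM10#1 (FDR 1.47e-08) and by 0.55 with shRBM10#2 (FDR 0.000297). IGFBP3 rose by 0.45 with shRBM10#1 (FDR 0.00672). IGFBP4 rose by 0.45 with shRBM10#1 (FDR 0.00104) and fell by 0.29 with shRBM10#2 (FDR 0.0102). IGFBP6 fell by 0.70 with shRBM10#1 (FDR 0.000185) and by 0.35 with shRBM10#2 (FDR 0.00928). PLAU, the urokinase protease, fell by 1.03 with shRBM10#1 (FDR 1.45e-05) and by 0.40 with shRBM10#2 (FDR 0.0039). The heparin-bound FGF carrier FGFBP1 fell by 0.96 with shRBM10#1 (FDR 0.0299).

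Among proprotein convertases, which cleave precursor proteins, PCSK5 fell by 0.81 with shRBM10#1 (FDR 0.0275) and by 0.81 with shRBM10#2 (FDR 0.0165), and FURIN, which cleaves the precursors of MET, IGF1R and INSR, fell by 0.34 (FDR 0.00495) and fell by 0.57 (FDR 0.000239). PCSK6, named after its value was seen because it went the other way, rose by 0.30 with shRBM10#1 (FDR 0.0172). IGF2R, which clears IGF-II, fell by 0.52 with shRBM10#1 (FDR 0.00127) and by 0.46 with shRBM10#2 (FDR 0.00219). Of 13 co-receptors and related receptors, 2 were higher and 0 lower with shRBM10#1 by edgeR, and 2 were higher and 2 lower with shRBM10#2. PLXNB1 rose by 0.36 with shRBM10#1 (FDR 0.00371), whereas PLXNB2 fell by 0.43 (FDR 0.000612) and EPHA4 and CD44, a co-receptor of MET, rose by 0.42 (FDR 0.0392) and 0.30 (FDR 0.0101) with shRBM10#2. Among 20 adaptors and phosphatases, 4 were higher and 2 lower with shRBM10#1, and 2 were higher and 4 lower with shRBM10#2. GAB2, a docking protein, fell by 0.64 with shRBM10#1 (FDR 0.0173), and its log2 FC of -0.41 with shRBM10#2 was not called (FDR 0.067). GRB10, an inhibitory adaptor of INSR and IGF1R, fell by 0.43 with shRBM10#1 (FDR 0.014) and by 0.66 with shRBM10#2 (FDR 0.000928). With shRBM10#2 the RAS exchange factors SOS2 and SOS1 rose by 0.27 (FDR 0.0415) and 0.24 (FDR 0.03). Their log2 FC with shRBM10#1 was 0.21 (FDR 0.134) and 0.05 (FDR 0.721), neither of them called.

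**Figure D4:**
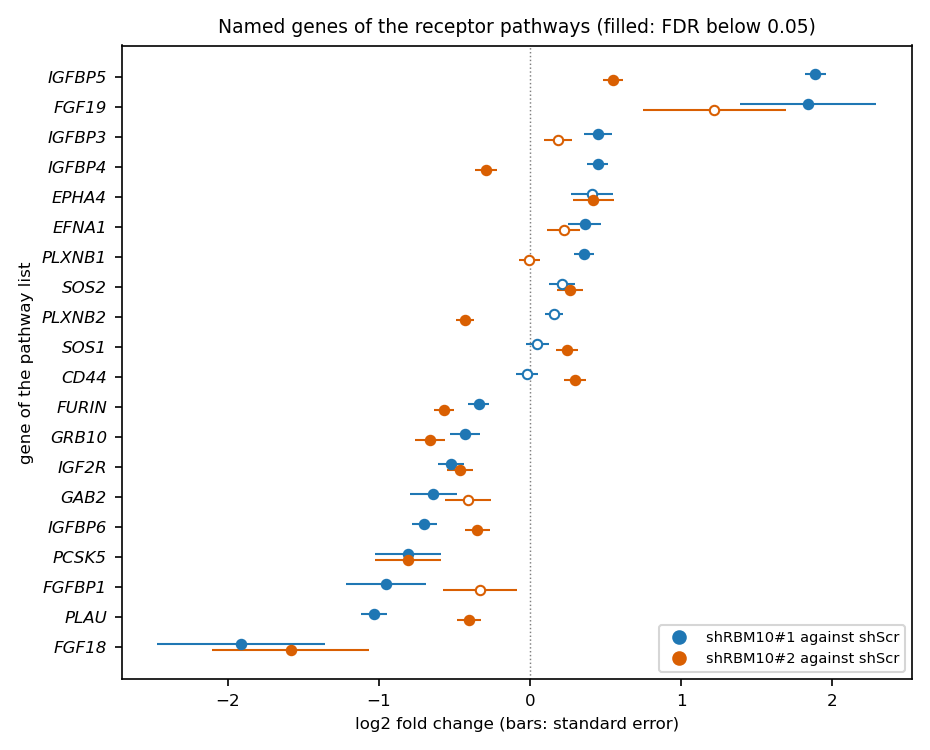
Log2 fold change (x axis) of the 20 named pathway genes (y axis) with shRBM10#1 and shRBM10#2, both against the same shScr libraries. Bars are standard errors and filled points have an FDR below 0.05. IGFBP5 is the highest with shRBM10#1 (1.89) and FGF18 the lowest with both (-1.91 and -1.59). FGF18 had only 4 to 31 expected counts per library.

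As a description of the called receptors, the genes whose log2 CPM followed each most closely over the 6 libraries were named. For EPHA2 they were EPS15L1, SCNM1 and DDX39B (Pearson r 0.994 to 0.996), for FGFR3 VKORC1, DEF6 and C1orf115 (0.996 to 0.999), for DDR1 AES, SERPINF2 and TMC4 (0.995 to 1.00) and for AXL MTRF1L, TFCP2L1 and KIAA1462 (0.992 to 0.994). These were the highest of 14217 genes over 6 points that share condition and depth.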

How the data were processed

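Total RNA of 6 PC-9 libraries was sequenced. The authors aligned and quantified reads with STAR 2.4 and RSEM 1.2.29 on hg19 (submitters' processing notes), with read length and strand not given in the sources used here. The authors deposited, for each of 51398 RefSeq isoforms, the expected count, TPM (scaled by length and depth), FPKM (not used here) and the percent of its gene's TPM. The read split of RSEM among overlapping isoforms can move isoform values more than gene totals. Groups and replicate numbers come from the labels.

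Expected counts, summed per gene for totals, were rounded and tested with edgeR 4.0.16 (quasi-likelihood, TMM, filterByExpr by condition, Benjamini-Hochberg over all features tested) in R 4.3.3, with 95% intervals from its standard errors. The pooled comparison took the 4 KD libraries as 1 group, and the others used 1 coefficient per condition. Isoform usage was tested with diffSpliceDGE and the Simes p-value. Shares of main isoforms (highest mean percent) were compared by exact two-sided permutation, unadjusted. SciPy 1.17.1 and matplotlib 3.10.9 were in use under Python 3.11.15. The procedures were tested on simulated counts with changes larger than those of the called receptor totals. How they do at smaller changes, or with reads split among isoforms, was not simulated.

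All 9 receptors were described, with isoforms of at least 10% of their gene in 1 condition mean, and, from the pathway list, called genes up to 6 per direction and comparison. For each called receptor, the 3 genes of highest Pearson correlation were named. The receptors and lists were chosen with earlier results of these data known. Alternatives were DESeq2 1.42.0, its size factors, no filter, at least 10 counts in every library, a replicate block, an effective length offset, other criteria, limma 3.58.1 for usage, and each library left out. A crossed block was added after the data were seen. Intervals and p-values cover these libraries only, with 31953729 to 37557507 counts each. The sequences of FGFR1 and FGFR2 and the proteins were not used here, and 1 further FGFR2 isoform past 10% is not reported here.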

Additional observations from a re-analysis of the deposited data

Results flagged for a closer look

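In 13 results the effects of the shRNAs differed from each other, by the test of shRBM10#2 against shRBM10#1 (edgeR, FDR below 0.05). Of these, 3 were receptors, with log2 FC of -0.43 for DDR1, -0.40 for EPHA2 and -0.23 for FGFR3. RBM10 itself was lower with shRBM10#2 (-1.11), so that the depth of KD differs with the shRNA, and its part in the other differences was not tested. Among the named pathway genes, the log2 FC was 0.63 for PLAU, -0.23 for FURIN, -0.37 for PCSK6, -0.74 for IGFBP4, -1.34 for IGFBP5, 0.35 for IGFBP6, 0.31 for CD44, -0.36 for PLXNB1 and -0.59 for PLXNB2. No difference in isoform usage between the shRNAs was tested.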

How the results depend on the processing

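Leaving out 1 library at a time gave 0 to 1 gene totals in the pooled comparison, 1 to 5 with shRBM10#1, 1 to 3 with shRBM10#2 and 1 to 3 between the shRNAs, where the full set gave 0, 2, 2 and 3. The 5 with shRBM10#1 came without shRBM10#1 replicate 1. With an added log2 FC criterion of 1, 1 was left with shRBM10#1, 0 with shRBM10#2 and 0 between the shRNAs. For isoforms with shRBM10#2, where edgeR called 0, DESeq2 called 2, a minimum of 10 counts in every library 1, and no fold criterion 1. The shares of all isoforms under these alternatives are not given here. DDR1 usage with shRBM10#2 was called in all alternatives but 1, and leaving out libraries gave 0 to 1. Main isoform shares without overlap ranged from 1 to 5 receptors with 1 library left out, and the share over all genes was not counted.

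Replicate numbers did not pair the libraries, with correlations of deviations of -0.12, -0.06 and -0.05. With the replicate block, 0, 2, 2 and 3 gene totals, 0 isoforms in each comparison, and 0, 0 and 1 receptors by usage were called, and 1 main isoform share did not overlap. The crossed replicate block, chosen after seeing the data, called 3 with shRBM10#1. Some values that were not called changed sign when 1 library was left out. The log2 FC then ranged from -0.047 to 0.061 for MET, -0.0069 to 0.12 for INSR, -0.093 to 0.023 for FGFR2 and -0.15 to 0.035 for DDR1 in the pooled comparison. With shRBM10#1 INSR ranged from -0.13 to 0.24, and with shRBM10#2 INSR ranged from -0.0029 to 0.11 and IGF1R from -0.081 to 0.0498. Between the shRNAs INSR ranged from -0.19 to 0.19 and FGFR1 from -0.10 to 0.22. The difference in the FGFR2 main isoform share ranged from -4.18 to 23.1 points. INSR between the shRNAs was at 0.0012 with no filter and 0.0011 with 10 counts in every library. The cause was not tested. Among the receptor totals, the lowest counts were those of AXL (26 to 81 per library), and what difference they could show was not tested.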
